A study of Homo sapiens with 9 samples.

Results

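The genes described here are 6 receptor tyrosine kinases (*EGFR*, *ERBB2*, *ERBB3*, *MET*, *AXL* and *EPHA2*) and 4 ligands of EGFR (*AREG*, *EREG*, *TGFA* and *HBEGF*), 10 of the 27860 genes with a value. They were taken by gene symbol, and the value of a gene is the sum of the FPKM (sequenced fragments scaled by transcript length and by the size of the library) of all its RefSeq transcripts. RNA was sequenced from DU145, an established human prostate cancer cell line, labelled wild type in genotype and carrying a lentiviral pLKO.1 short hairpin in every group. The 3 groups of 3 libraries each expressed a scrambled shRNA (scramble), or shRNA #1 (shRNA1) or shRNA #2 (shRNA2) against *FZD6*, which encodes the Wnt receptor Frizzled-6. No parental, uninfected cells were compared, no age or time after infection was used, and nothing in the sources used here says that the 3 libraries of a group came from separate cultures, so the p-values measure the spread between these libraries, which may be technical.

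Receptor tyrosine kinases span the plasma membrane, bind a ligand outside the cell, pair up and phosphorylate each other on tyrosines that then recruit adaptors such as GRB2 and SHC1, which feed the RAS to ERK cascade and PI3K. EGFR and its relatives ERBB2 and ERBB3 form mixed pairs: ERBB2 has no known ligand and is the favoured partner of the others, and ERBB3 has little kinase activity of its own. Amphiregulin (*AREG*), epiregulin (*EREG*), TGF-alpha (*TGFA*) and heparin-binding EGF (*HBEGF*) are made as membrane proteins that sheddases of the ADAM family cut free. MET is the receptor of hepatocyte growth factor, AXL that of GAS6, and EPHA2 binds ephrin-A ligands on neighbouring cells; in prostate cancer these kinases are studied as drivers of growth and invasion.

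The knockdown itself was visible in all 6 libraries. *FZD6* stood at 20.04 to 20.9 FPKM in the scramble libraries, at 9.47 to 10.2 FPKM with shRNA1 and at 7.69 to 8.79 FPKM with shRNA2, means that were 52.1% and 60.5% lower. The libraries fit their labelled cell line: summed epithelial markers stood between 665 and 729 FPKM, and the neuroendocrine, fibroblast and endothelial lists summed to under 1 FPKM in each library. The leukocyte list rose with the hairpins, from 18.1 to 19.2 FPKM in scramble to 22.2 to 23.7 FPKM with shRNA1 and 26.0 to 27.9 FPKM with shRNA2, through *CD68*, a lysosomal protein that many cells make. Of the 6 members of this list, 1 averaged over 1 FPKM. *PTPRC*, which marks leukocytes, and *CD3E*, which marks T cells, were listed at 0 in all 9 libraries. The confidence bounds in the files imply about 32800000 to 41000000 fragments per library.

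Among the 10 genes, 5 differed between the 6 knockdown and the 3 scramble libraries, at an adjusted p under 0.05 in a limma fit over the 12509 genes that averaged 1 FPKM or more. *AREG*, *HBEGF*, *MET* and *EPHA2* were higher with the knockdown and *ERBB2* was lower; *EGFR*, *ERBB3*, *AXL*, *EREG* and *TGFA* did not pass. The background is large: 20.6% of all genes passed this test, 13.5% higher and 7.10% lower. The median log2 difference, on the scale of log2(FPKM + 1) used throughout, was 0.10 over the 10 genes and 0.03 over all genes tested. Of all genes that passed, 1690 were higher and 888 lower, a split that quantile normalization turned into 1047 and 1058 and the removal of a trend in transcript length into 824 and 737. The same 5 genes passed in each hairpin's own comparison with scramble, where 18.8% of all genes passed with shRNA1 and 26.7% with shRNA2; these comparisons share the scramble libraries. With shRNA1 only 3 passed without scramble replicate 1 or shRNA1 replicate 1, and 2 without scramble replicate 2 or shRNA1 replicate 3.

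The DNA just before the transcription start of the 4 genes that rose is shown because they moved in the same direction in both hairpins, and that of a start inside *EGFR* because about 1 of every 3 FPKM of *EGFR* was assigned to the transcript that begins there. Of the 10 genes, 9 had an entry among RefSeq promoters of GRCh38.p14, in 12 windows (all but *ERBB3*), and only the 250 bases before the start are used. Capitals mark matches, on either strand, to 6 motifs spelled out here with the share of 35116 promoter windows that hold each: TGACGTCA (CRE, 1.65%), TGANTCA (AP-1, 6.57%), TATAAA (the box of that name, 10.7%), GGGCGG (GC box, 42.6%), CTTTGAT (TCF, 2.26%) and CCGGAAGT (ETS, 3.42%). The windows read 5′ to 3′ on the strand of each gene and lie at chr4:74444886-74445135 (plus strand, *AREG*), chr5:140346604-140346853 (minus, *HBEGF*), chr7:116671946-116672195 (plus, *MET*), chr1:16156070-16156319 (minus, *EPHA2*) and chr7:55109589-55109838 (plus, inside an intron of *EGFR*).
AREG: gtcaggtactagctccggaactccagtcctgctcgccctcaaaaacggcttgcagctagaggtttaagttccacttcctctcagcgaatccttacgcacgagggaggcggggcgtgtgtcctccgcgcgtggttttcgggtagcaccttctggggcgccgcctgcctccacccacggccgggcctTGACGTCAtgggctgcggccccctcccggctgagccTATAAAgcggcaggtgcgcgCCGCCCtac
HBEGF: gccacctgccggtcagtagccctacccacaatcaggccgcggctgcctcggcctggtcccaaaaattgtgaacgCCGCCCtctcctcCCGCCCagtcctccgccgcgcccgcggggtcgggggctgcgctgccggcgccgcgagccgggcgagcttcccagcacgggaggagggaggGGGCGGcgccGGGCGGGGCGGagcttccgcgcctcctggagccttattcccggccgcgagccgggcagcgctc
MET: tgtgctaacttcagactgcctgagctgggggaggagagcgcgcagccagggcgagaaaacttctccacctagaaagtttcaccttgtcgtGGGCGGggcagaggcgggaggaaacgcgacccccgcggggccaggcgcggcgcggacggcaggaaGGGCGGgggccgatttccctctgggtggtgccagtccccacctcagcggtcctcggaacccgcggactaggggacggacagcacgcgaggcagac
EPHA2: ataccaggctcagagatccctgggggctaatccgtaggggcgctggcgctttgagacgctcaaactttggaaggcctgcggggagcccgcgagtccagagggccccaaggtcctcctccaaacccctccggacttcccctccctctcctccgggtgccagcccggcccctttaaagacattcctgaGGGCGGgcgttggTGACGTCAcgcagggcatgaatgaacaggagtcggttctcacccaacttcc
EGFR internal start: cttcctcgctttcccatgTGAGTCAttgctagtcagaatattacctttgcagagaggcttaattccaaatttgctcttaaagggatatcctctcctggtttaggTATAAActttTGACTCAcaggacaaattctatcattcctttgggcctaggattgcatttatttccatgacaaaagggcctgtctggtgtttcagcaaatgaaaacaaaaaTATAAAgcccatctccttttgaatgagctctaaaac
The window of *AREG* held the full CRE, the site of CREB family factors, at bases 65 to 58 before the start, and a TATA box at bases 29 to 24. *EPHA2* held the same CRE letters at bases 51 to 44 and no TATAAA, so 2 of the 12 windows carried it. *HBEGF* held 5 GC boxes, of which the pair nearest the start overlap by 1 base, and *MET* held 2. The internal *EGFR* window held 2 AP-1 matches, at bases 232 to 226 and at bases 136 to 130, while the window of the upstream *EGFR* start at chr7:55018767-55019016 held 2 GC boxes and neither AP-1 nor TATAAA. Neither the TCF letters, bound by partners of beta-catenin, nor the ETS letters were found in any of the 5 windows printed. The window of *ERBB2*, the gene that fell, is not printed. It held 2 ETS matches, at bases 27 to 20 and 14 to 7, and 1 AP-1 match, at bases 222 to 216. Its start lies upstream of that of the main *ERBB2* transcript. A match describes the letters and shows no binding.

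Levels are compared between genes per kilobase of transcript. In scramble cells *AXL* was by far the highest, at 146 FPKM ± 1.73 (SD, n = 3), which lay above 95.5% of the genes tested. *AREG* came next at 40.9 FPKM, then *EPHA2* at 33.8, *ERBB2* at 32.3, *EGFR* at 29.2, *MET* at 14.2, *EREG* at 13.6, *ERBB3* at 8.21, *TGFA* at 7.49 and *HBEGF* at 6.56 FPKM. The ranges of *EPHA2* and *ERBB2* overlapped, as did those of *MET* and *EREG*, and all other neighbours in this order were apart. With shRNA2 the order of *EGFR* (27.5 FPKM) and *ERBB2* (25.9 FPKM) was the reverse of that in scramble, with overlapping ranges, and *ERBB3*, *TGFA* and *HBEGF* lay between 7.65 and 7.88 FPKM with ranges that overlapped from each neighbour to the next. With shRNA1 *ERBB2* and *EGFR* overlapped as well, and *ERBB3* was the lowest of the 10 at 7.27 FPKM.

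**Figure D1:**
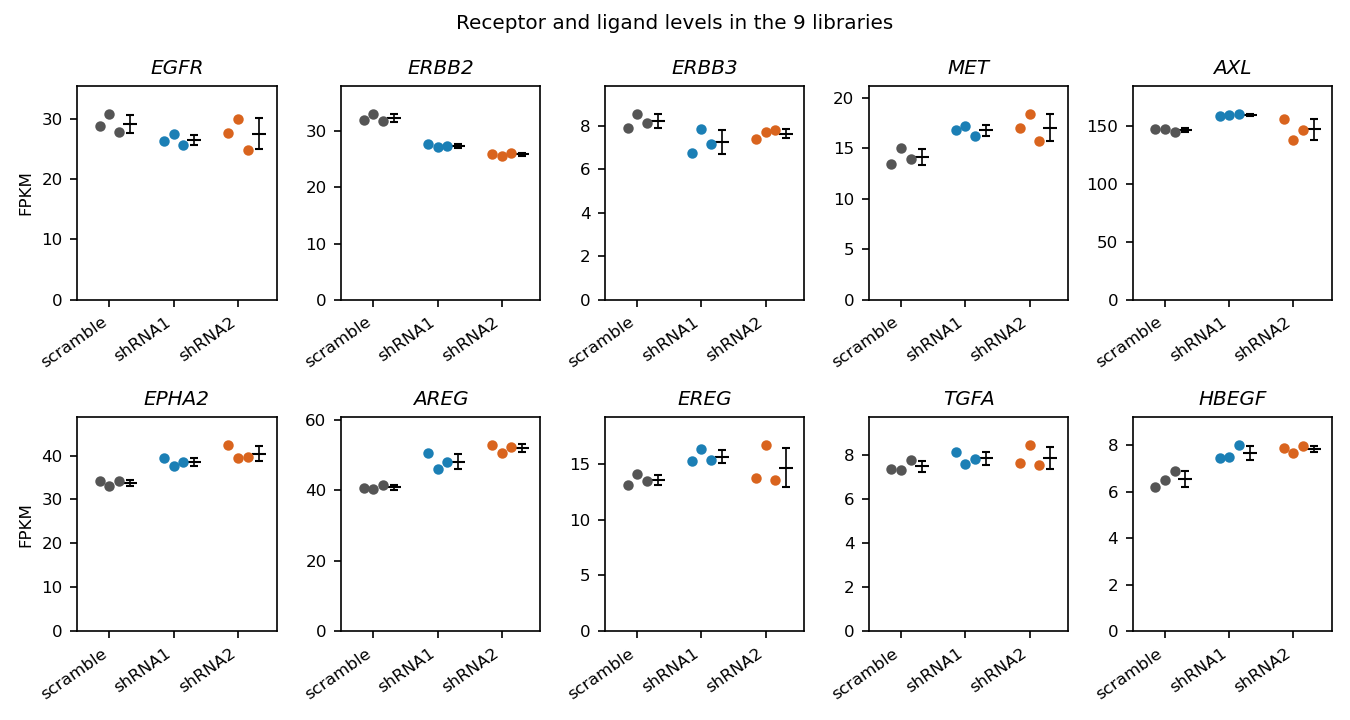
FPKM of the 10 genes in each library (points), with the mean and SD of each group of 3 libraries beside them; every axis starts at 0. *AREG*, *HBEGF*, *MET* and *EPHA2* points lie higher in both hairpin groups than in scramble and *ERBB2* points lower, while *EGFR*, *AXL*, *EREG* and *TGFA* overlap between scramble and the 6 knockdown libraries.

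Among the ligands, *AREG* (chr4:74445136-74455005, plus strand) gave the largest difference. This gene for amphiregulin read 40.8, 40.3 and 41.5 FPKM in the scramble libraries, 50.6, 46.1 and 48.0 with shRNA1 and 52.8, 50.7 and 52.5 with shRNA2. All 6 knockdown values lay above all 3 scramble values, as was true, in either direction, of 25.9% of all genes tested, and the shRNA2 values lay above those of shRNA1. The mean was 22.7% higher in the knockdown (log2 difference 0.29 ± 0.045 SE, limma adjusted p = 0.00489), 18.0% higher with shRNA1 and 27.3% higher with shRNA2. Each value rests on an estimated 1576 to 2298 fragments, a counting error of 2.09% to 2.52% of the value, since *AREG* has a single RefSeq transcript. In bulk RNA, a larger share of cells that make an mRNA and more of it per cell cannot be told apart.

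*HBEGF* (chr5:140332843-140346603, minus strand), whose product binds heparan sulphate and both EGFR and ERBB4, was the lowest of the 4 ligands in scramble. It read 6.23, 6.53 and 6.91 FPKM there, 7.48, 7.49 and 8.00 with shRNA1 and 7.88, 7.69 and 7.97 with shRNA2. The groups did not overlap. The mean was 18.2% higher in the knockdown (log2 difference 0.21 ± 0.036 SE, limma adjusted p = 0.00635), from an estimated 498 to 723 fragments per library. Its own call with shRNA1 (adjusted p = 0.0179) was lost in 3 of the 9 fits that left out 1 library, with adjusted p up to 0.0632: without scramble replicate 1, scramble replicate 2 or shRNA1 replicate 3.

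*EREG* (chr4:74365145-74388749, plus strand), 56.4 kb upstream of *AREG* on the same strand, did not pass. Epiregulin read 13.1, 14.1 and 13.5 FPKM in scramble, 15.3, 16.3 and 15.3 with shRNA1 and 13.7, 16.6 and 13.6 with shRNA2. The shRNA1 libraries lay above scramble, and 2 of the 3 shRNA2 libraries fell within the scramble range, the third being the highest of all 9. The log2 difference was 0.15 ± 0.067 SE over the knockdown (limma adjusted p = 0.156), with a 95% interval of -0.01 to 0.30. With shRNA1 the log2 difference was 0.19 (limma adjusted p = 0.108), and it passed when the variable shRNA2 replicate 2 was left out of the shared estimate of spread (adjusted p = 0.0121). In all, *EREG* with shRNA1 gained a call in 5 of 23 settings. Among them were the length trend removed (limma adjusted p = 0.0483) and a fit of only the 6 libraries compared (0.0209). *TGFA* (chr2:70447284-70553826, minus strand), the ligand TGF-alpha, read 7.37, 7.32 and 7.80 FPKM in scramble, 8.15, 7.59 and 7.83 with shRNA1 and 7.63, 8.45 and 7.57 with shRNA2. These ranges overlapped, and the log2 difference of 0.06 had an interval of -0.03 to 0.15 (limma adjusted p = 0.293).

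Added up with *BTC* (betacellulin), *EGF* and *EPGN* (epigen), the 7 ligands of EGFR summed to 70.5 to 72.5 FPKM in scramble and to 81.0 to 87.4 FPKM in the knockdown. *AREG* made up 56.4% to 57.8% of that sum in scramble and 57.0% to 61.9% in the knockdown, so it dominated the ligand mRNA in every library. *TGFA* made up 10.2% to 10.7% in scramble and 8.91% to 9.67% in the knockdown, a smaller part of a larger sum. The mRNAs of EGFR, ERBB2 and ERBB3 together summed to 67.8 to 72.5 FPKM in scramble and to 58.8 to 63.4 FPKM in the knockdown. No test was made on these sums, which are driven by the members already described.

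Among the receptors of this family, *ERBB2* (chr17:39688094-39728658, plus strand) fell. It read 32.1, 33.1 and 31.7 FPKM in scramble, 27.7, 27.1 and 27.3 with shRNA1 and 25.9, 25.6 and 26.1 with shRNA2. The 3 groups were fully separate, and the spread within each was small, with coefficients of variation of 2.15%, 1.10% and 0.864%. The mean was 17.5% lower in the knockdown (log2 difference -0.27 ± 0.032 SE, limma adjusted p = 0.00245), 15.2% lower with shRNA1 and 19.8% lower with shRNA2. This call held in every fit that left out 1 library.

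*EGFR* (chr7:55019017-55211628, plus strand) did not pass. It read 28.9, 30.8 and 27.9 FPKM in scramble, 26.3, 27.5 and 25.7 with shRNA1 and 27.7, 30.1 and 24.9 with shRNA2. All shRNA1 values lay below scramble, while the shRNA2 values spread over the scramble range and below it. The log2 difference of -0.11 ± 0.058 SE had a 95% interval of -0.24 to 0.02 (limma adjusted p = 0.214). *EGFR* has the longest transcript of the 10 (9821 bases), and its difference turned to 0.02 when the trend in length was removed.

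*ERBB3* (chr12:56080108-56103505, plus strand), the partner with a weak kinase, read 7.93, 8.56 and 8.15 FPKM in scramble, 6.77, 7.86 and 7.19 with shRNA1 and 7.42, 7.72 and 7.83 with shRNA2. All 6 knockdown values lay below all 3 scramble values, the sixth of the 10 genes of which groups did not overlap, against 25.9% of all genes tested. The highest knockdown value was close to the lowest scramble value. Its log2 difference of -0.12 ± 0.047 SE missed the threshold (limma adjusted p = 0.0973). With shRNA1 it passed when shRNA1 replicate 2, the highest of that group, was left out (-0.21, adjusted p = 0.0414). The fourth relative, *ERBB4*, was at most 0.00455 FPKM and was not tested.

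*MET* (chr7:116672196-116798377, plus strand), the receptor of hepatocyte growth factor, was higher with the knockdown. It read 13.5, 15.01 and 14.0 FPKM in scramble, 16.9, 17.3 and 16.2 with shRNA1 and 17.0, 18.4 and 15.7 with shRNA2. The groups did not overlap, and scramble replicate 2 and shRNA2 replicate 3 came closest to each other. The mean was 19.4% higher in the knockdown (log2 difference 0.24 ± 0.051 SE, limma adjusted p = 0.0138). The call was lost without scramble replicate 1 (0.21, adjusted p = 0.0651) or scramble replicate 3 (0.23, adjusted p = 0.0523); with shRNA1 alone it was lost in 7 of the 9 fits that left out 1 library (all but those without shRNA2 replicate 2 or 3, adjusted p up to 0.115), and with shRNA2 alone in 3, without scramble replicate 1 or 3 or shRNA2 replicate 1 (up to 0.0713). It was also lost with shRNA1 when no filter on low values was used (adjusted p = 0.0616) and with shRNA2 when only the 6 libraries compared were fitted (adjusted p = 0.0619). *HGF*, its ligand, was listed at 0 in all 9 libraries.

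*EPHA2* (chr1:16124337-16156069, minus strand), the ephrin-A receptor, rose as well. It read 34.1, 33.1 and 34.1 FPKM in scramble, 39.5, 37.5 and 38.5 with shRNA1 and 42.3, 39.4 and 39.6 with shRNA2. The groups did not overlap. The mean was 16.9% higher in the knockdown (log2 difference 0.22 ± 0.037 SE, limma adjusted p = 0.00643); with shRNA1 alone the call was lost in 3 of the 9 fits that left out 1 library, with adjusted p up to 0.0584, namely without scramble replicate 2, shRNA1 replicate 1 or shRNA1 replicate 3, and under quantile normalization (0.13, adjusted p = 0.0534).

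*AXL* (chr19:41219223-41261766, plus strand), the GAS6 receptor and the most abundant of the 10, did not pass. It read 147, 147 and 144 FPKM in scramble, 158, 159 and 160 with shRNA1 and 156, 138 and 147 with shRNA2. The shRNA1 libraries lay above scramble and varied little, while the shRNA2 libraries lay on both sides of scramble. The log2 difference was 0.12 ± 0.042 SE with shRNA1 (limma adjusted p = 0.0856) and 0.00 ± 0.042 SE with shRNA2 (limma adjusted p = 0.971). The difference with shRNA1 passed when shRNA2 replicate 1 (adjusted p = 0.0388) or 2 (0.0225) was left out of the shared estimate of spread, or all 3 (0.0120).

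Transcript length moved with the differences. Across 12295 genes with a length, 98.3% of those tested, the log2 difference between knockdown and scramble had a Spearman correlation of -0.43 with length, given as a description since genes are not independent. The median length was 2608 bases; *AREG* (1240 bases), *TGFA* (1225) and *HBEGF* (2386) are shorter, and *AXL* (3206), *EPHA2* (3964), *ERBB2* (4545), *EREG* (4619), *ERBB3* (5919) and *MET* (6635) are longer. With the trend removed from each library the same 5 genes passed for the knockdown: *AREG* at 0.19 (limma adjusted p = 0.0297), *HBEGF* at 0.17 (0.0168), *MET* at 0.31 (0.00140), *EPHA2* at 0.22 (0.0129) and *ERBB2* at -0.25 (0.00508). With shRNA1 *EREG* passed as well (0.22, limma adjusted p = 0.0483). The difference of *AREG* was smaller and that of *MET* larger than without this step, and *TGFA* turned to -0.03.

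**Figure D2:**
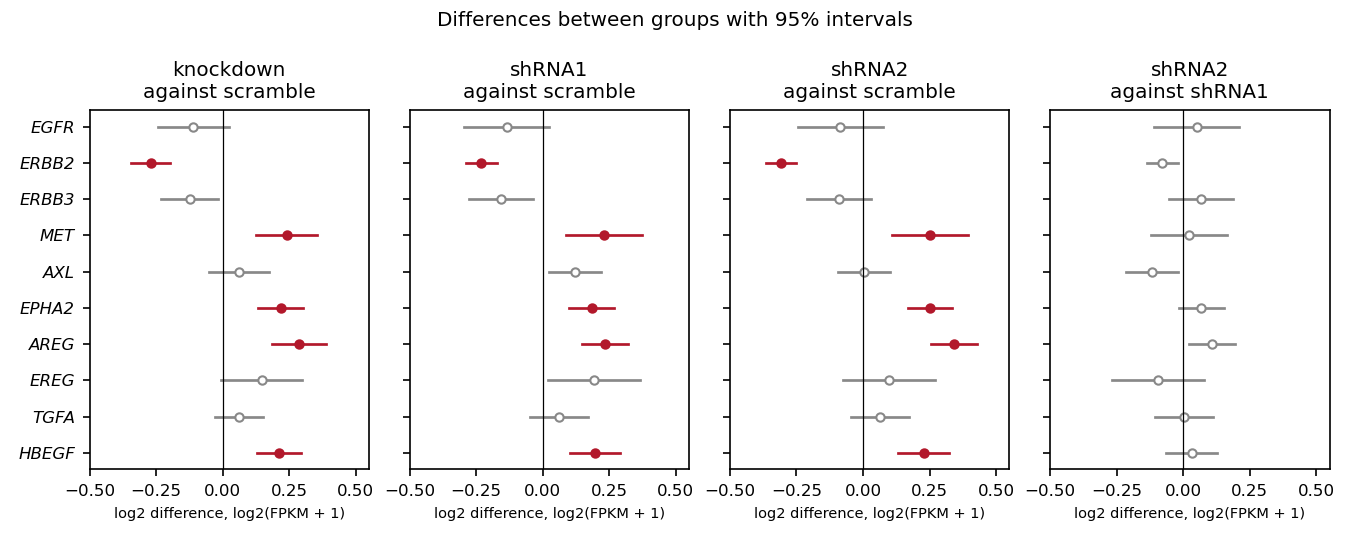
Log2 differences of the 10 genes on the log2(FPKM + 1) scale with 95% intervals from limma, for the knockdown and each hairpin against scramble and for shRNA2 against shRNA1. Filled red points passed an adjusted p under 0.05: *AREG*, *HBEGF*, *MET*, *EPHA2* and *ERBB2* in each comparison with scramble, and none of the 10 between the hairpins.

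Whether the hairpins differed from each other was tested directly. None of the 10 genes passed in shRNA2 against shRNA1 by limma, where 6.71% of all genes did (1.92% higher and 4.79% lower with shRNA2), and 3 had an unadjusted p under 0.05: *ERBB2* (log2 difference -0.08, interval -0.14 to -0.02), *AXL* (-0.12, interval -0.21 to -0.02) and *AREG* (0.11, interval 0.02 to 0.19). Those 3 were also the genes whose shRNA1 and shRNA2 values did not overlap, against 26.4% of all genes. For the others the intervals leave room for differences in either direction, the widest being *EREG* (-0.27 to 0.08). Without shRNA2 replicate 2, *EREG* did pass, lower with shRNA2 by the remaining libraries (-0.18, limma adjusted p = 0.0396). In each hairpin's comparison with scramble, 9 of the 10 genes had groups that did not overlap with shRNA1 (46.8% of all genes) and 6 with shRNA2 (40.6%).

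The 10 genes have 33 RefSeq transcripts in the files, and 18 of these averaged 1 FPKM or more. None of the 18 passed in the limma fit over 19780 transcripts, where 1.09% did, and 4 had an unadjusted p under 0.05; *AREG* was nearest, at an adjusted p of 0.05001. Among filters and fits, 3 passed with a minimum of 5 FPKM or a mean-variance trend and 2 with no filter. Values of transcripts of a gene that overlap along most of their length are estimates that can be exchanged with each other. *TGFA* showed this most clearly. NM_001099691 read 3.88, 3.98 and 0.0968 FPKM in scramble and 7.51, 2.69 and 1.47 FPKM with shRNA2, while NM_003236 read 3.49, 3.33 and 7.50 FPKM and 0.00555, 5.64 and 5.89 FPKM in the same libraries, and the sum stayed between 7.32 and 8.45 FPKM in all 9 libraries.

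*EGFR* was divided over 3 transcripts. The internal start, NM_001346900, held on average 36.1% of the gene's FPKM in scramble, 33.2% with shRNA1 and 37.1% with shRNA2, and read 7.36 to 12.3 FPKM over the 9 libraries. NM_005228, the full-length receptor, read 8.84, 11.1 and 8.36 FPKM in scramble, 10.1, 8.46 and 10.1 with shRNA1 and 4.94, 11.01 and 3.57 with shRNA2, where NM_001346941 read 13.2, 6.26 and 11.4 FPKM. The shRNA2 libraries with least of the former had most of the latter. The forms that end early and encode soluble receptors, NM_201282, NM_201283 and NM_201284, each stayed under 2% of the gene.

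*ERBB2*, *MET* and *AXL* each had a leading transcript. NM_004448 of *ERBB2*, which starts at chr17:39699978, downstream of the start in the promoter set, held 88.1% of the gene in scramble, 91.6% with shRNA1 and 88.9% with shRNA2. It read 28.9, 29.4 and 27.1 FPKM in scramble and 22.7 to 25.8 FPKM in the knockdown, without overlap, but did not pass (limma adjusted p = 0.0743). NM_000245 of *MET* held 84.8% to 92.9% on average in the 3 groups, and NM_001699 of *AXL* 63.6% to 66.0%. *EPHA2* was split between a pair of transcripts, with NM_001329090 at 42.6% of the gene in scramble, 44.9% with shRNA1 and 50.7% with shRNA2 on average. It read 11.2, 14.3 and 17.6 FPKM in scramble and 15.9 to 23.0 FPKM in the knockdown (unadjusted p = 0.0397, limma adjusted p = 0.251), while NM_004431 read 16.5 to 23.0 FPKM in scramble and 18.1 to 23.6 FPKM in the knockdown. The short *ERBB3* form NM_001005915, which ends at chr12:56085617 and lacks most of the gene, held 28.4% to 32.1% of the gene on average in the groups.

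**Figure D3:**
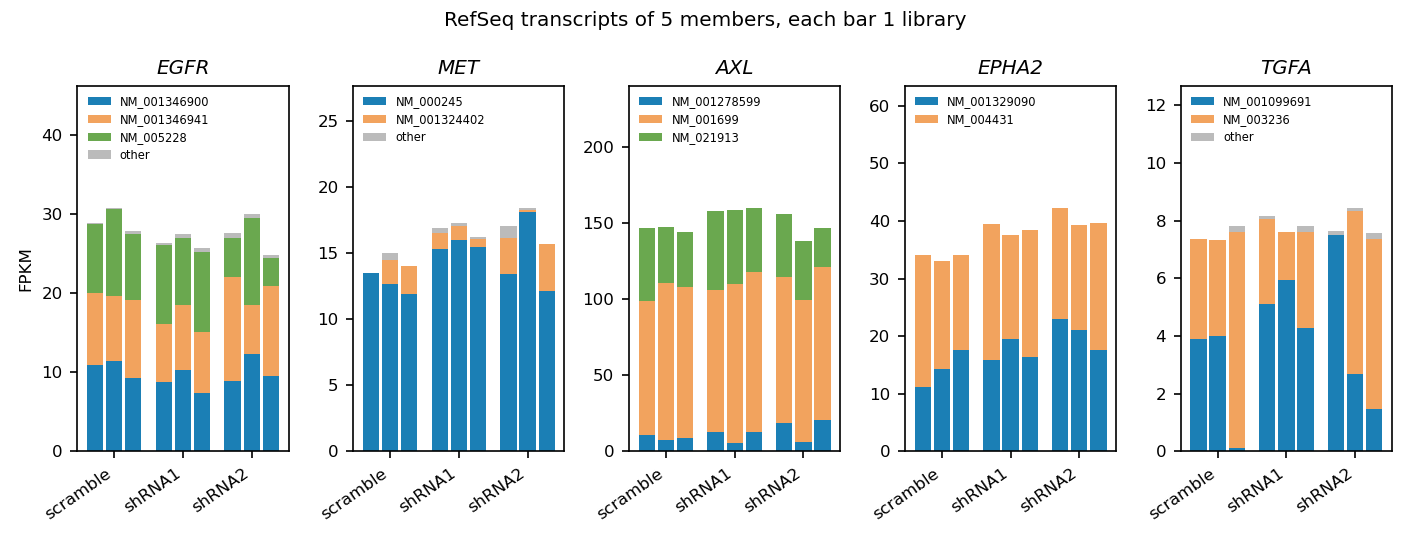
FPKM of the RefSeq transcripts of *EGFR*, *MET*, *AXL*, *EPHA2* and *TGFA*, stacked, with a bar for each of the 9 libraries and grey for transcripts with a mean under 1 FPKM. The total height changes little between the libraries of a group while the parts do, most of all in *TGFA*, where NM_001099691 ranges from 0.0968 to 7.51 FPKM.

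The genes around the receptors were described by 7 lists of related genes, and their counts are given beside the 20.6% of all genes that passed. The lists were written by hand with earlier results of these data known. A count above that share is therefore a description and no test of a list. Of 10 tested among 20 other receptor tyrosine kinases, 2 fell: *IGF1R*, the IGF1 receptor (10.6 to 8.10 FPKM, log2 difference -0.35 ± 0.043 SE), and *EPHB4*, a receptor of ephrin-B2 (28.98 to 25.3 FPKM, -0.19 ± 0.029 SE). With shRNA1 30% of the 10 passed and with shRNA2 40%, all lower, where 18.8% and 26.7% of all genes passed. *INSR*, the insulin receptor gene, was lower with shRNA1 (-0.13, limma adjusted p = 0.0351) and with shRNA2 (-0.38, 0.000592). For the knockdown it missed the threshold (limma adjusted p = 0.0547). None of the 8 other ligands tested of 16 passed in limma, where the median difference was 0.03, with 1 of the 8 at an unadjusted p under 0.05. *GAS6*, the AXL ligand, had a mean of 14.1 FPKM in scramble and 13.5 in the knockdown. In each hairpin's own comparison with scramble, 37.5% of the 8 passed with shRNA2, where 26.7% of all genes did, and 0 with shRNA1. With shRNA2 *GAS6* was lower (-0.20, limma adjusted p = 0.0244), and *PROS1* (0.16, 0.0497) and *EFNA3* (0.13, 0.0492) were higher. Of 15 tested among 20 sheddases and growth factor activators, 1 rose, *PLAUR*, the urokinase receptor (31.6 to 37.0 FPKM, 0.22 ± 0.033 SE). *ADAM17* and *ADAM10*, the main sheddases of these ligands, did not pass for the knockdown; with shRNA2 *ADAM10* was lower (-0.29, limma adjusted p = 0.0120).

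Of 11 coreceptors and membrane partners tested of 13, 4 fell and 1 rose, with a median of -0.16. The mucin *MUC1* fell from 14.5 to 10.6 FPKM (-0.42 ± 0.075 SE), the integrin *ITGB4* from 8.14 to 6.67 (-0.25 ± 0.035 SE), *PLXNB2*, a plexin that associates with MET and ERBB2, from 27.7 to 23.3 (-0.24 ± 0.045 SE) and the glypican *GPC1* from 152 to 136 (-0.16 ± 0.046 SE). *CD44*, which presents growth factors to MET and ERBB receptors, rose from 35.8 to 39.2 FPKM (0.13 ± 0.024 SE). Without scramble replicate 2 only 3 of the 11 passed. The hairpins differed here: with shRNA1 36.4% of the 11 passed and the median was -0.03. With shRNA2 72.7% passed and the median was -0.22, where 18.8% and 26.7% of all genes passed. *GPC1* did not pass with shRNA1 (limma adjusted p = 0.0812).

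Of 22 receptor adaptors tested of 24, 4 fell and 1 rose. *IRS2*, the insulin receptor substrate, fell from 9.43 to 7.54 FPKM (-0.29 ± 0.026 SE), *GRB10*, a negative adaptor of insulin and IGF1 receptors, from 12.4 to 10.7 (-0.19 ± 0.025 SE), the guanine nucleotide exchange factor *VAV2* from 17.7 to 15.7 (-0.16 ± 0.032 SE) and *SHC1*, which links ERBB receptors to GRB2, from 208 to 190 (-0.13 ± 0.040 SE). *RIN1*, a RAS effector that acts on RAB5, rose from 6.83 to 7.79 FPKM (0.17 ± 0.044 SE). This count depended on single libraries: it was 3 without scramble replicate 1, scramble replicate 3, shRNA1 replicate 3 or shRNA2 replicate 1, 2 without scramble replicate 2 and 8 without shRNA2 replicate 2. Against scramble, 22.7% of the 22 passed with shRNA1 and 45.5% with shRNA2, where 18.8% and 26.7% of all genes did. *SHC1* (limma adjusted p = 0.0862) and *RIN1* (0.0700) did not pass with shRNA1.

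Of 28 genes tested of 29 for receptor endocytosis and negative regulation, 4 fell and 2 rose, with a median of -0.02. The kinase *TNK2*, which binds ubiquitin and clathrin, fell from 10.2 to 8.30 FPKM (-0.27 ± 0.038 SE), and the phosphatases *PTPN1* from 54.1 to 46.2 (-0.23 ± 0.044 SE), *PTPRJ* from 6.16 to 5.19 (-0.21 ± 0.042 SE) and *PTPRF* from 78.1 to 71.1 (-0.13 ± 0.036 SE). The endosomal sorting gene *STAM* rose from 15.1 to 16.9 FPKM (0.16 ± 0.027 SE), and *SH3KBP1*, a partner of the ubiquitin ligase CBL, from 41.8 to 46.1 (0.14 ± 0.024 SE). Without scramble replicate 2 only 3 of the 28 passed. *PTPRF* did not pass with shRNA1 (limma adjusted p = 0.0832).

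Of 14 transcriptional outputs of ERK tested of 20, 9 rose and none fell in limma, with a median of 0.22. *FOSL1*, an AP-1 subunit, rose from 98.2 to 134 FPKM (0.44 ± 0.054 SE), *ETV4*, an ETS factor, from 11.8 to 16.1 (0.41 ± 0.052 SE), the early response gene *IER3* from 72.5 to 93.7 (0.37 ± 0.043 SE) and *DUSP6*, the phosphatase that switches ERK off, from 3.13 to 3.91 (0.25 ± 0.045 SE). The others that passed were *PHLDA1*, *ETV5*, *LIF*, *SPRY2* and *CCND1*, with differences of 0.19 to 0.25, though *SPRY2* did not pass with shRNA1 (limma adjusted p = 0.0558). *SPRED1*, *SPRED2*, *DUSP4*, *DUSP5* and *EGR1* did not pass, though 3 of these passed in the comparison of 1 hairpin with scramble. *SPRED2*, an inhibitor of RAF, was lower with shRNA1 (-0.20, limma adjusted p = 0.00644), and of the ERK phosphatases *DUSP5* was higher with shRNA1 (0.40, limma adjusted p = 0.00423) and *DUSP4* with shRNA2 (0.20, limma adjusted p = 0.00236). The count was 6 to 9 when 1 library was left out and 8 with the length trend removed. It was 3 at a limma p under 0.01 and 1.2-fold, which 3.33% of all genes met.

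**Figure D4:**
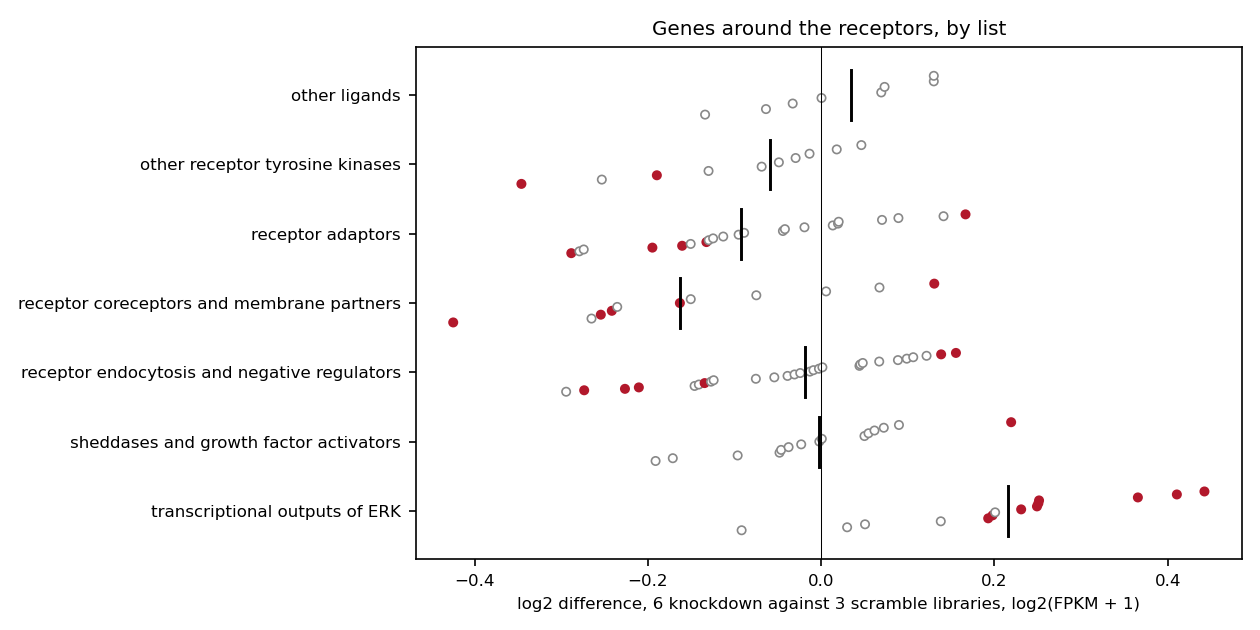
Log2 difference between the 6 knockdown and 3 scramble libraries for each tested gene of the 7 lists, with filled red points for genes that passed (limma adjusted p under 0.05) and a black bar at the list's median. The outputs of ERK lie mostly on the higher side, with 9 of 14 filled, and the coreceptors mostly on the lower side, with a median of -0.16. By hairpin, not drawn here, the coreceptor median was -0.03 with shRNA1 and -0.22 with shRNA2.

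For the 3 members with the largest differences, the genes with the most similar profile were found by the root mean square distance between log2(FPKM + 1) values, each centred on its own mean, over the 9 libraries. *AREG* lay nearest to *IMPDH2*, *CD55* and *PNP* (distances of 0.031 to 0.035), whose means rose from 106 to 126, from 35.8 to 43.0 and from 60.3 to 75.6 FPKM. *ERBB2* lay nearest to *NTN1*, *PRRC2A* and *IRS2* (0.027 to 0.032), with means of 3.57 and 2.83, 131 and 108, and 9.43 and 7.54 FPKM in scramble and knockdown. *MET* lay nearest to *NEDD4*, *CSE1L* and *POC1B* (0.033 to 0.035), with means of 28.5 and 33.0, 109 and 125, and 6.80 and 8.06 FPKM. Likeness was measured over the same libraries that gave the differences, and says nothing beyond that.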

How the data were processed

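Poly(A) RNA of 9 DU145 libraries (3 per group) was prepared with a stranded TruSeq kit and sequenced on an Illumina HiSeq. The authors' mapper was STAR, and their FPKM came from Cufflinks (versions not given in the sources used here); the deposited FPKM, with confidence bounds, are listed per RefSeq transcript and locus. The labels name build hg38 and the study's methods mm10; the loci in the files are human. Each library holds 83497 entries, and 72645 of 73240 accessions were paired with a gene through RefSeq (0.387% to 0.431% of summed FPKM was unpaired); FPKM were summed per gene. Entries on alternate contigs (9374) were included, and 42 genes with an entry not marked OK were left out.

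Genes that averaged 1 FPKM or more were fitted on log2(FPKM + 1) with limma 3.58.1 in R 4.3.3 (eBayes defaults, Benjamini-Hochberg over all 12509 genes, two-sided). Knockdown against scramble used 2 groups, and each hairpin a contrast in a model with 3 groups. On data simulated for knockdown against scramble the fit called 0 of 12420 genes with nothing planted, and, in sets of 12433 genes, 70% of genes planted at 1.2-fold and 94% at 0.5 on the log2 scale. The simulated noise was independent between genes, with no length trend, and both hairpins got the same planted difference. These rates need not hold for the real libraries. Fragment numbers were estimated from the upper bound, taken as 2 SD of a Poisson count above the value; they cover counting error only. The members and gene lists were chosen with earlier results of these data known. The genes named from a list are those that passed, up to 4 per direction by size; *PHLDA1*, *ETV5*, *LIF*, *SPRY2*, *CCND1*, *GAS6*, *SPRED2* and other genes named without passing were chosen after their values were seen. Marker lists were summed as FPKM. Transcript lengths came from GENCODE, promoters from RefSeq. The replicate numbers did not pair the libraries: deviations of same-numbered libraries correlated at -0.07 to 0.11.

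Alternatives were other pseudocounts (0.1, 0.01), no filter or 5 FPKM, median centring, quantile normalization, removal of the length trend, a replicate block, a mean-variance trend, the study's criteria (p under 0.01 and 1.2-fold, here with limma's p), primary chromosomes or NM accessions only, other sets of libraries, and leaving out each library.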

Additional observations from a re-analysis of the deposited data

Results flagged for a closer look

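None of the 10 genes, nor *FZD6*, had a library among the 6 knockdown libraries that stood apart by Dixon's criterion, where chance would give about 0.55 of 11.

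Of 108 genes tested in the lists around the receptors, 21 differed between shRNA2 and shRNA1 (limma adjusted p under 0.05), 15 lower and 6 higher with shRNA2. Of all genes tested 6.71% did, 4.79% lower and 1.92% higher. The count is a description and no test of the lists, and those of the 21 that the text names are given here. *CAV1*, which encodes the scaffold of caveolae, stood 0.59 lower on the log2 scale with shRNA2 than with shRNA1 (-0.59, adjusted p = 0.000401): it read 226 to 229 FPKM in scramble, 229 to 235 with shRNA1 and 147 to 161 with shRNA2. The adaptor *CRK* differed by -0.46 (adjusted p = 0.00108), reading 33.8 to 36.4, 33.1 to 34.2 and 23.2 to 24.8 FPKM in the same order. *CDCP1*, a membrane partner of EGFR family receptors, differed by -0.45 (adjusted p = 0.00129). The ERK phosphatase *DUSP5* differed by -0.40 (adjusted p = 0.00425), with a difference from scramble of 0.40 with shRNA1 and 0.00 with shRNA2. *ERRFI1*, which binds and inhibits the EGFR kinase, differed by -0.37 (adjusted p = 0.00307), the insulin receptor gene *INSR* by -0.26 (adjusted p = 0.00485) and the phosphatase *PTPN1* by -0.12 (adjusted p = 0.0359). *SPRED2* differed by 0.22 (adjusted p = 0.00547) and *GAS6* by -0.27 (adjusted p = 0.0210). *CCND1* and *ETV5* were each 0.13 higher with shRNA2 (adjusted p = 0.0463 and 0.0356), as was *DUSP4* (0.13, adjusted p = 0.0294), and the adaptor *GRB2* differed by -0.10 (adjusted p = 0.0356). *CAV1*, *CRK*, *CDCP1*, *DUSP5*, *ERRFI1*, *INSR* and *DUSP4* were named after their values were seen, and none of the 10 members was among the 21.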

How the results depend on the processing

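Over 4 comparisons and up to 23 settings each, 853 of the differences of single members kept their direction and their side of the threshold, 34 lost a call, 11 gained a call and 22 changed sign, none of them called; the cause was not tested. *ERBB2* passed in all 23 settings for the knockdown (-0.30 to -0.24).

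Without the length trend, also with the replicate block, *EGFR* changed sign (0.0206 for the knockdown, 0.00697 with shRNA1, 0.0343 with shRNA2), as did *TGFA* (-0.0336, -0.0405 and -0.0268) and *AXL* with shRNA2 (-0.00957, and -0.0268 under quantile normalization). The numbers of the replicates do not pair the libraries, and 5 of 9 libraries correlated best with their own number. With the replicate block 5 members passed for the knockdown, 7 with shRNA1 (*ERBB3* and *EREG* added), 5 with shRNA2 and 0 between the hairpins. The share of all genes that passed with the block is not given here, so counts under it have no background beside them. With the block the adaptors that passed fell to 3, and with block and length trend removed to 2, the coreceptors to 3, the sheddases to 0 and the members to 4, *AREG* being lost (adjusted p = 0.0565). Under the study's criteria, which 3.33% of all genes met, 2 members (*AREG* and *ERBB2*) passed for the knockdown, 0 with shRNA1 and 2 with shRNA2, with 1 transcript, 1 other receptor tyrosine kinase, 1 coreceptor, 1 adaptor, 1 negative regulator, 0 sheddases and 3 outputs of ERK. Member transcripts that passed numbered 2 with no filter, 3 with a minimum of 5 FPKM and 3 with a mean-variance trend; no filter gave 1 other ligand, and quantile normalization gave 2 sheddases.

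Leaving out 1 library at a time gave 2 to 7 members with shRNA1 and 0 to 1 between the hairpins, 0 to 1 other ligands, 3 to 5 coreceptors, 2 to 8 adaptors and 3 to 9 negative regulators. The share of all genes that passed in each of these fits is not given here either. Leaving out 1 library moved *AXL* with shRNA2 between -0.0402 and 0.0462, and, between the hairpins, *EGFR* from -0.0125 to 0.119, *MET* from -0.0332 to 0.0755 and *TGFA* from -0.0411 to 0.0291. Depth limits *HBEGF* most among the single-transcript ligands, at 498 to 723 estimated fragments.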
